A study of Homo sapiens with 12 samples.

Results

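The genes described here carry glucose from the cell surface to pyruvate, lactate and glycogen: 39 genes of glucose uptake, the glycolytic isoenzymes, the enzymes of glycogen and the control of pyruvate dehydrogenase, of 20263 genes in the deposited table. They were chosen by function and by symbol, but with earlier results of these data known. They comprised 2 glucose transporters, 6 genes of upper glycolysis, 3 genes that set fructose 2,6-bisphosphate, 10 genes of lower glycolysis, 2 lactate dehydrogenase subunits, 7 genes of pyruvate dehydrogenase and its control, 2 subunits of the mitochondrial pyruvate carrier and 7 genes of glycogen. mRNA was sequenced from U-87 MG, a long-established line of human glioblastoma cells, in 12 libraries that formed 4 groups of 3. The groups were an empty vector control (vector), a knockout of HIF1α (HIF1α-ko), a knockout of HIF2α (HIF2α-ko) and a dual knockout of HIF1α and HIF2α (HIF1α/2α-ko). All 4 groups had been kept in hypoxia (1% O2), so no library gives a level at normal oxygen. The duration was 72 h by the design text of the series, but the general methods of the study name a shorter time for mRNA work, so it is uncertain. How the knockouts were made, and whether each was a single clone or a pool, is not given in the sources used here, nor is it stated that the 3 libraries of a group came from separate cultures, so the p-values measure the spread between these libraries, which may be technical.

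HIF1α and HIF2α are the oxygen-regulated subunits of the hypoxia-inducible factors, which bind short DNA elements and raise transcription when oxygen is scarce. Glycolysis splits glucose into pyruvate and yields ATP without oxygen. Pyruvate is then either reduced to lactate by lactate dehydrogenase or taken into mitochondria by the pyruvate carrier and oxidised by pyruvate dehydrogenase, which the PDK kinases switch off and the PDP phosphatases switch on. Many glycolytic genes are textbook targets of HIF1α, and glioblastoma cells are known for high glucose use.

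Levels are given as TPM, a measure of transcript abundance, which are scaled by gene length and by library total, so levels of different genes can be set side by side. Log2 fold changes and their standard errors (SE) come from limma on log2(TPM + 1) over the 11731 genes that reached 1 TPM in 3 or more libraries, with p-values adjusted over all of them, and a gene is called where its adjusted p is under 0.05. This scale understates the change of genes of low TPM. The mRNA of the targeted genes was still present: HIF1A stood at 110.0 to 151 TPM in vector and 38.6 to 57.3 in HIF1α-ko (log2 fold change -1.34 (adjusted p = 0.000851)), and EPAS1, which encodes HIF2α, at 286 to 346 in vector and 87.6 to 118 in HIF2α-ko (log2 fold change -1.59 (adjusted p = 0.000375)). In HIF1α/2α-ko the log2 fold changes were -0.71 (adjusted p = 0.0104) for HIF1A and -1.45 (adjusted p = 1.3e-05) for EPAS1. HIF1A stood at 67.8 to 89.2 TPM there, which overlapped with 76.1 to 108 TPM in HIF2α-ko, where HIF1A was not the target and where all libraries lay below vector without a call (-0.52 (adjusted p = 0.112)). The glioma and mesenchymal markers VIM and CD44 were high (at least 5635 and 399 TPM in every library), whereas the astrocytic markers GFAP and AQP4 were at most 0.639 TPM and at 0, and the 7 markers of other cell types reached at most 3.63 TPM. VIM was lower in HIF2α-ko (-0.81 (adjusted p = 0.00858)) and HIF1α/2α-ko (-0.96 (adjusted p = 0.000412)) and OLIG2 was higher in HIF1α/2α-ko (2.31 (adjusted p = 0.000828)), and their part in the results below was not tested. TPM keep no record of read depth, so the depth behind a value is unknown and no counting interval is given. Vector replicate 1 stood apart from its group, with a Pearson r across genes of 0.968 and 0.966 to the other vector libraries, which had 0.989 between them, and so counts are also given without it. Replicate 1 also had the lowest r in each knockout group. It had 0.982 and 0.983 beside 0.991 in HIF1α-ko, 0.985 and 0.985 beside 0.992 in HIF2α-ko, and 0.975 and 0.977 beside 0.992 in HIF1α/2α-ko. Some counts with replicate 1 of every group left out, a setting chosen after seeing the data, are given at the end.

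Together the 39 genes held a large share of the mRNA, and that share was lower in both groups with a HIF1α knockout (HIF1α-ko and HIF1α/2α-ko). In libraries 1, 2 and 3 of each group, in which order all values below are given, their summed TPM was 6.52%, 8.32% and 7.98% of the total in vector, with HIF1α-ko at 3.80%, 3.27% and 3.23%, HIF2α-ko at 9.78%, 8.59% and 8.44%, and HIF1α/2α-ko at 4.28%, 3.64% and 3.64%. The means were 7.61% ± 0.954 (SD, n = 3), 3.43% ± 0.320, 8.94% ± 0.731 and 3.85% ± 0.367. Every library of HIF1α-ko and HIF1α/2α-ko lay below every vector library, and every HIF2α-ko library lay above them. Lower glycolysis made up most of the sum, with vector at 6.82% ± 0.889, HIF1α-ko at 2.93% ± 0.319, HIF2α-ko at 8.12% ± 0.718 and HIF1α/2α-ko at 3.29% ± 0.343. GAPDH alone had a mean of 36381 ± 5429.8 TPM in vector (SD, n = 3). Because a few such genes take so large a part of the total, the share was also formed without the 10 genes of highest mean TPM, and the order of the groups was then the same at 5.03%, 2.71%, 5.78% and 3.13%. In a bulk library, fewer cells that make an mRNA and less mRNA per cell cannot be told apart.

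Of the 39 genes, 38 could be tested. PDK4 could not, since its highest TPM was 0.142 and it was listed at 0 in all HIF1α-ko libraries. In HIF1α-ko, 20 of the 38 were lower than in vector, beside 8.77% of all tested genes, and 4 were higher, beside 17.3%. In HIF1α/2α-ko, 20 were lower, beside 14.8%, and 8 were higher, beside 31.8%. In HIF2α-ko, 1 was lower, beside 5.89%, and 7 were higher, beside 5.07%. Without vector replicate 1 there were 21 lower and 5 higher genes in HIF1α-ko, 20 lower and 8 higher genes in HIF1α/2α-ko, and 2 lower and 8 higher genes in HIF2α-ko. At a log2 fold change of 1 or more in size, 16 were lower and 1 was higher in HIF1α-ko (2.85% and 4.09% of all tested genes), 8 were lower and 5 higher in HIF1α/2α-ko (4.65% and 14.0%), and 0 passed in HIF2α-ko (1.16% and 1.08%).

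The median log2 fold change of the 38 genes was -0.50 in HIF1α-ko, -0.52 in the dual knockout and 0.12 in HIF2α-ko, beside 0.18, 0.21 and -0.04 for all tested genes. The TPM of a library sum to a fixed total, and the general shift depends on that scale: with median ratio scaling the medians of all genes were 0.01, 0.01 and -0.00, and those of the 38 genes were -0.70, -0.75 and 0.17. Under that scaling HIF1α-ko had 21 lower and 3 higher genes, HIF1α/2α-ko had 22 and 7, and HIF2α-ko had 0 and 5. There were 16 genes lower in both HIF1α-ko and HIF1α/2α-ko, 4 called lower in HIF1α-ko alone (HK1, GPI, LDHA and ENO2, the last of which was called in both without vector replicate 1) and 4 called lower in HIF1α/2α-ko without that call in HIF1α-ko (SLC2A1, HK2, PDK2 and MPC2). Higher in both were 3 genes, ENO3, PDHB and MPC1. Both comparisons use the same vector libraries, so their calls are not independent. The share of all tested genes called in both groups is not given, nor are such shares for the counts under median ratio scaling. SLC2A3, PFKFB2, ALDOA, GBE1 and UGP2 were not called against vector in any group with all libraries.

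**Figure D1:**
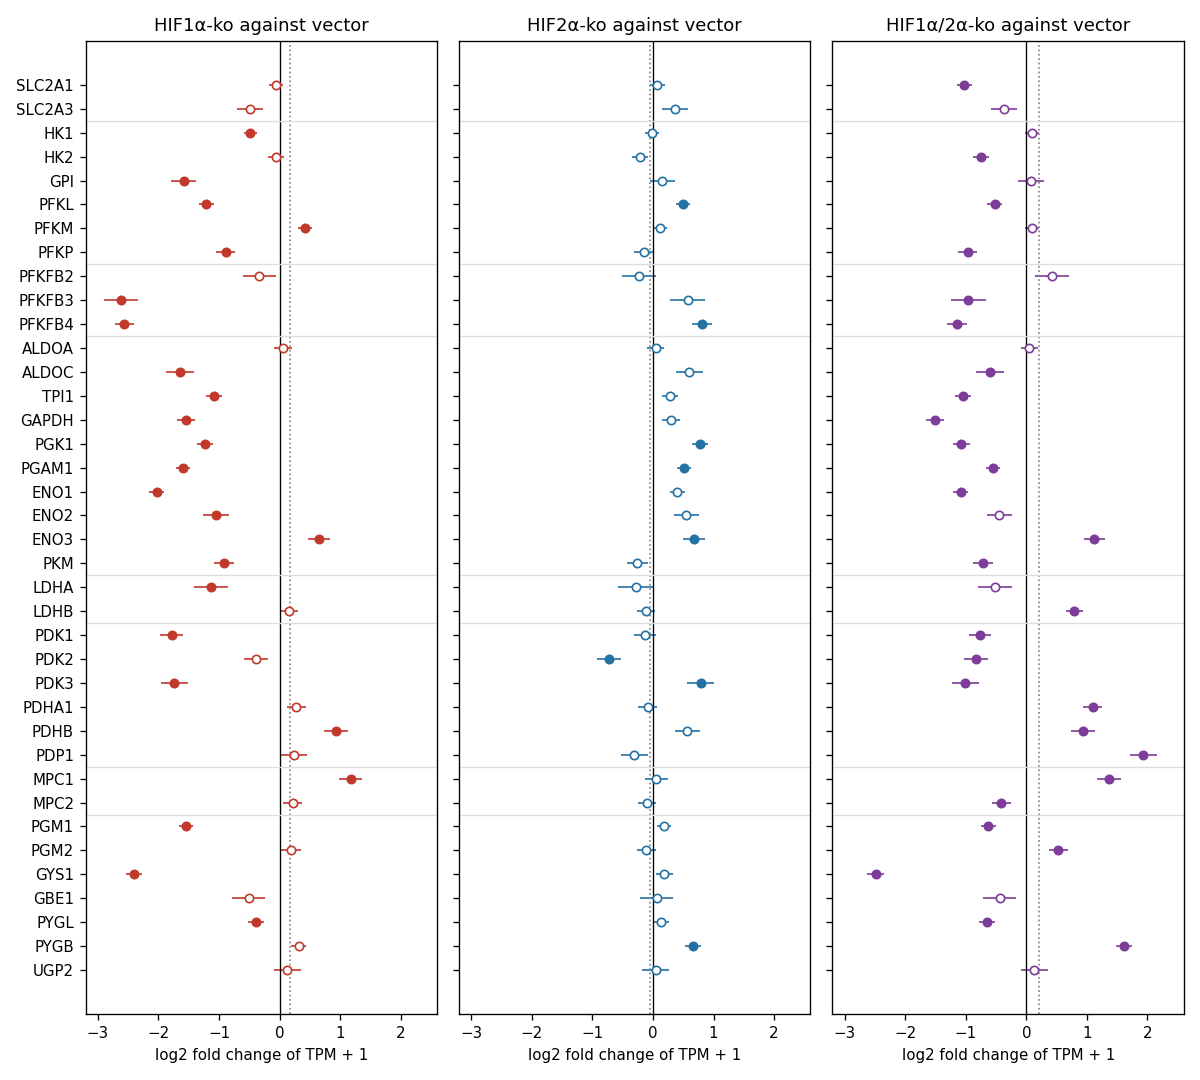
Log2 fold change of TPM + 1 against vector for the 38 tested genes in each knockout group, ordered by role from glucose uptake (top) to glycogen (bottom). Points are limma estimates with bars of 1 SE, filled where the adjusted p was under 0.05, and the dotted line marks the median of all 11731 tested genes. Filled points lie to the left for 20 genes in HIF1α-ko and 20 genes in HIF1α/2α-ko, and all points stay between -1 and 1 in HIF2α-ko.

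HIF dimers bind a core of ACGTG or GCGTG, so promoters were searched for these letters on both strands, in RefSeq windows from 250 bases before to 50 bases after each start (GRCh38.p14). Windows were given for 36 of the 39 genes, and not for SLC2A3, PDP1 and PFKFB2. The core stood in 43 of 66 windows of these genes (65.2%), in 60.3% of windows of tested genes and in 48.4% of all promoter windows. Among genes lower in HIF1α-ko it stood in 22 of 35 windows (62.9%), and among the remaining genes in 21 of 31 (67.7%). PGAM1, PYGL and PDK4 had no match there. A match to so short a motif is a description of the sequence and not a measured binding site. Stretches of 5 promoters are given to show the core, in capitals on whichever strand it lies, in genes of each pattern: GYS1, PFKFB4 and GAPDH were lower in both HIF1α-knockout groups, GPI was called lower in HIF1α-ko alone and HK2 in HIF1α/2α-ko alone. They lie at chr19:48993360-48993424 (minus strand), chr3:48556935-48556999 (minus strand), chr12:6535154-6535218 (plus strand), chr19:34364800-34364864 (plus strand) and chr2:74834049-74834113 (plus strand), and each is written in the direction of its gene.
GYS1: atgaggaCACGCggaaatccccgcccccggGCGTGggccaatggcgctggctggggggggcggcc
PFKFB4: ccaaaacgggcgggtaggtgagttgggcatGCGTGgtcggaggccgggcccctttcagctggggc
GAPDH: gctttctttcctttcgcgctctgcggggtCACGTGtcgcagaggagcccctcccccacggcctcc
GPI: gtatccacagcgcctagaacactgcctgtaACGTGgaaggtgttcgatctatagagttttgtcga
HK2: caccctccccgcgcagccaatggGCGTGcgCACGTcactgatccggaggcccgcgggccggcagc

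Both glucose transporters were abundant, and SLC2A1 was lower only where HIF1α and HIF2α were knocked out together. SLC2A1 (ENSG00000117394, chr1:42925375-42959176, minus strand), the main glucose carrier of many tumour cells, stood at 1050.3, 1203 and 1095 TPM in vector, 1128, 1058 and 1018 TPM in HIF1α-ko, 1285, 1152 and 1089 TPM in HIF2α-ko, and 646, 509 and 498 TPM in HIF1α/2α-ko. The HIF1α/2α-ko libraries lay below all others, and those of the single knockouts overlapped with vector. Its log2 fold change was -0.06 ± 0.12 (SE, adjusted p = 0.728) in HIF1α-ko, 0.07 ± 0.12 (SE, adjusted p = 0.75) in HIF2α-ko and -1.02 ± 0.12 (SE, adjusted p = 3.85e-05) in HIF1α/2α-ko. SLC2A3, a high-affinity carrier typical of neurons, had means of 896 ± 269.5 TPM in vector, 623 ± 30.7 TPM in HIF1α-ko, 1129 ± 88.6 TPM in HIF2α-ko and 699 ± 222 TPM in HIF1α/2α-ko (SD, n = 3). Against vector it was not called, with log2 fold changes of -0.48 (adjusted p = 0.111), 0.37 (adjusted p = 0.296) and -0.36 (adjusted p = 0.186), and in vector it ranged from 729 to 1207 TPM, highest in replicate 1. In HIF1α-ko it was called lower without HIF1α/2α-ko replicate 1, and with replicate 1 of every group left out, the last an alternative chosen after seeing the data. It was also called lower with the replicate block on all 12 libraries, where vector libraries are matched by column number alone, without known pairing. In HIF2α-ko it was called higher without vector replicate 1 (0.60 (adjusted p = 0.0444)).

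In upper glycolysis, where glucose is phosphorylated, isomerised and phosphorylated again, 4 of 6 genes were lower in HIF1α-ko and 3 of 6 in HIF1α/2α-ko (8.77% and 14.8% of all tested genes). GPI (ENSG00000105220, chr19:34359480-34402413, plus strand), which converts glucose 6-phosphate to fructose 6-phosphate, stood at 393, 586 and 509 TPM in vector, 231, 135 and 137 TPM in HIF1α-ko, 600.1, 546 and 496 TPM in HIF2α-ko, and 618, 489 and 455 TPM in HIF1α/2α-ko. Its HIF1α-ko libraries lay below all others, and the HIF2α-ko and HIF1α/2α-ko libraries overlapped with vector. The log2 fold change of GPI was -1.59 ± 0.21 (SE, adjusted p = 0.000553) in HIF1α-ko, 0.16 ± 0.21 (SE, adjusted p = 0.691) in HIF2α-ko and 0.08 ± 0.21 (SE, adjusted p = 0.789) in HIF1α/2α-ko. PFKL (ENSG00000141959, chr21:44300051-44327376, plus strand), the liver-type phosphofructokinase of the committed step, stood at 199, 228 and 199 TPM in vector, 102, 85.2 and 82.0 TPM in HIF1α-ko, 327, 286 and 271 TPM in HIF2α-ko, and 148, 141 and 145 TPM in HIF1α/2α-ko. No knockout group overlapped with vector, the HIF1α-knockout groups being lower and HIF2α-ko higher. PFKL had log2 fold changes of -1.21 ± 0.12 (SE, adjusted p = 0.000126), 0.49 ± 0.12 (SE, adjusted p = 0.0227) and -0.52 ± 0.12 (SE, adjusted p = 0.00369) in the same order. Its call in HIF2α-ko was lost under 5 alternatives, among them median ratio scaling.

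PFKP, the platelet-type phosphofructokinase, was the most abundant of the 3 phosphofructokinases, at 1123 ± 299 TPM in vector, and it was lower in HIF1α-ko (-0.89 ± 0.16 (SE, adjusted p = 0.00287)) and HIF1α/2α-ko (-0.97 ± 0.16 (SE, adjusted p = 0.000475)). Muscle-type PFKM went the other way at 68.2 ± 4.28 TPM in vector and 91.3 ± 8.31 in HIF1α-ko (log2 fold change 0.41 ± 0.11 (SE, adjusted p = 0.0208)), a call lost under 5 alternatives, among them median ratio scaling. The hexokinases trap glucose in the cell by phosphorylation. HK1 was lower in HIF1α-ko (-0.48 ± 0.11 (SE, adjusted p = 0.00969)) but not in HIF1α/2α-ko (0.10 ± 0.11 (SE, adjusted p = 0.507)), and HK2 was lower in HIF1α/2α-ko (-0.75 ± 0.13 (SE, adjusted p = 0.000557)) but not called in HIF1α-ko (-0.06 ± 0.13 (SE, adjusted p = 0.749)). Their mean TPM was 599 and 509 in vector, 426 and 486 TPM in HIF1α-ko, 589 and 437 TPM in HIF2α-ko, and 636 and 299.7 TPM in HIF1α/2α-ko.

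The PFKFB enzymes make and break fructose 2,6-bisphosphate, the strongest activator of phosphofructokinase, and PFKFB3 and PFKFB4 had the steepest falls of all 38 genes in HIF1α-ko on the log2(TPM + 1) scale. PFKFB3 (ENSG00000170525, chr10:6144934-6254644, plus strand) stood at 58.7, 125 and 125 TPM in vector, 15.2, 15.3 and 14.5 TPM in HIF1α-ko, 141, 159.9 and 135 TPM in HIF2α-ko, and 75.1, 42.1 and 38.7 TPM in HIF1α/2α-ko. The HIF1α-ko libraries lay close together and below every other library, whereas HIF1α/2α-ko overlapped with vector through replicate 1 of both groups (58.7 TPM in vector and 75.1 in HIF1α/2α-ko). PFKFB3 had a log2 fold change of -2.62 ± 0.28 (SE, adjusted p = 0.000201) in HIF1α-ko, 0.57 ± 0.28 (SE, adjusted p = 0.222) in HIF2α-ko and -0.95 ± 0.28 (SE, adjusted p = 0.0154) in HIF1α/2α-ko. Without vector replicate 1 it was -2.98 in HIF1α-ko and -1.31 in the dual knockout (adjusted p = 1.13e-05 and 0.000747). The call of PFKFB3 in HIF1α/2α-ko was lost under 5 alternatives. Among them was leaving out any one of the vector replicates 2 and 3 and the HIF1α/2α-ko replicates 2 and 3. PFKFB4 (ENSG00000114268, chr3:48517684-48562015, minus strand) stood at 139, 215 and 212 TPM in vector, 30.8, 29.1 and 31.7 TPM in HIF1α-ko, 294, 347 and 338 TPM in HIF2α-ko, and 74.0, 86.6 and 89.4 TPM in HIF1α/2α-ko. No group overlapped with another for PFKFB4, with HIF1α-ko lowest, then HIF1α/2α-ko, vector and HIF2α-ko. Its log2 fold changes were -2.56 ± 0.16 (SE, adjusted p = 3.28e-06), 0.81 ± 0.16 (SE, adjusted p = 0.00922) and -1.15 ± 0.16 (SE, adjusted p = 0.000136) in HIF1α-ko, in HIF2α-ko and the dual knockout. PFKFB2, the form known from heart, was at 2.91 to 8.34 TPM over all libraries and was not called in any group (-0.34, -0.23 and 0.42 on the log2 scale). Without vector replicate 1, which held the lowest value, these became -0.68 (adjusted p = 0.0315), -0.58 (adjusted p = 0.0841) and 0.08 (adjusted p = 0.781), so that it was called lower in HIF1α-ko.

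Lower glycolysis, from aldolase to pyruvate kinase, gave the most uniform picture, with 8 of 10 genes lower in HIF1α-ko and 7 of 10 lower in HIF1α/2α-ko (8.77% and 14.8% of all tested genes). GAPDH (ENSG00000111640, chr12:6533927-6538374, plus strand), which oxidises glyceraldehyde 3-phosphate and is often used as a reference gene, stood at 30267, 40641 and 38235 TPM in vector, 14438, 11361 and 11405 TPM in HIF1α-ko, 49371, 42393 and 42037 TPM in HIF2α-ko, and 15031, 11598 and 11836 TPM in HIF1α/2α-ko. The HIF1α-knockout libraries reached at most 15031 TPM, and vector and HIF2α-ko libraries had at least 30267. The log2 fold change of GAPDH was -1.55 ± 0.15 (SE, adjusted p = 0.000103) in HIF1α-ko, 0.30 ± 0.15 (SE, adjusted p = 0.219) in HIF2α-ko and -1.50 ± 0.15 (SE, adjusted p = 1.29e-05) in HIF1α/2α-ko. TPI1 (ENSG00000111669, chr12:6867119-6870948, plus strand), which interconverts the triose phosphates, stood at 6122, 8182 and 7382 TPM in vector, 3889, 3138 and 3197 TPM in HIF1α-ko, 9334, 8398 and 8420.1 TPM in HIF2α-ko, and 3841, 3277 and 3305 TPM in HIF1α/2α-ko. The HIF1α-knockout libraries were again below all vector libraries, with log2 fold changes of -1.08 ± 0.13 (SE, adjusted p = 0.000313) in HIF1α-ko and -1.05 ± 0.13 (SE, adjusted p = 5.15e-05) in HIF1α/2α-ko, beside 0.28 ± 0.13 (SE, adjusted p = 0.19) in HIF2α-ko. PGK1 (ENSG00000102144, chrX:77910739-78129296, plus strand), the first ATP-yielding step, stood at 1373, 1030.4 and 1082 TPM in vector, 449, 493 and 533 TPM in HIF1α-ko, 1874, 2035 and 2019 TPM in HIF2α-ko, and 459, 601 and 591 TPM in HIF1α/2α-ko. Both HIF1α-knockout groups were below vector and its HIF2α-ko libraries above it, at -1.23 ± 0.14 (SE, adjusted p = 0.000222), 0.78 ± 0.14 (SE, adjusted p = 0.00596) and -1.08 ± 0.14 (SE, adjusted p = 7.07e-05) in HIF1α-ko, in HIF2α-ko and the dual knockout. The rise of PGK1 in HIF2α-ko was the one HIF2α-ko call among the 39 genes that held under every alternative tried other than a threshold of 1 on the size of the log2 fold change.

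PGAM1 (ENSG00000171314, chr10:97426160-97433441, plus strand), the phosphoglycerate mutase, stood at 995, 983 and 968 TPM in vector, 391, 283 and 309 TPM in HIF1α-ko, 1500.0, 1363 and 1345 TPM in HIF2α-ko, and 734, 649 and 633 TPM in HIF1α/2α-ko. No group overlapped with another, and the log2 fold change was -1.59 ± 0.12 (SE, adjusted p = 1.79e-05) in HIF1α-ko, 0.51 ± 0.12 (SE, adjusted p = 0.0211) in HIF2α-ko and -0.55 ± 0.12 (SE, adjusted p = 0.00303) in HIF1α/2α-ko. The HIF2α-ko call of PGAM1 was lost under 6 alternatives, among them median ratio scaling. ENO1 (ENSG00000074800, chr1:8861000-8879250, minus strand), the ubiquitous enolase, stood at 6107, 7449 and 7593 TPM in vector, 1982, 1556 and 1637 TPM in HIF1α-ko, 10478, 8802 and 8657 TPM in HIF2α-ko, and 3323, 3345 and 3289 TPM in HIF1α/2α-ko. The 4 groups were separate for ENO1 too, HIF1α-ko being lowest, and its log2 fold changes were -2.03 ± 0.12 (SE, adjusted p = 2.81e-06), 0.40 ± 0.12 (SE, adjusted p = 0.0581) and -1.08 ± 0.12 (SE, adjusted p = 3.51e-05). ENO2 (ENSG00000111674, chr12:6913745-6923698, plus strand), the neuronal enolase, stood at 753, 1423 and 1410.2 TPM in vector, 496, 665 and 515 TPM in HIF1α-ko, 1559, 1793 and 1699 TPM in HIF2α-ko, and 834, 886 and 808 TPM in HIF1α/2α-ko. It was lower in HIF1α-ko (-1.05 ± 0.21 (SE, adjusted p = 0.0042)), while the HIF1α/2α-ko libraries overlapped with vector and were not called (-0.45 ± 0.21 (SE, adjusted p = 0.0974)), nor were those of HIF2α-ko (0.55 ± 0.21 (SE, adjusted p = 0.113)). The overlap came from vector replicate 1 alone, without which ENO2 was called lower in HIF1α/2α-ko (-0.75 (adjusted p = 0.000599)), as it was under median ratio scaling (-0.67 (adjusted p = 0.031)). ENO3 (ENSG00000108515, chr17:4948092-4957131, plus strand), the muscle enolase, was low but stood higher in every knockout library than in vector, at 6.97, 6.07 and 5.06 TPM in vector, 10.3, 11.2 and 8.60 TPM in HIF1α-ko, 9.23, 10.3 and 11.02 TPM in HIF2α-ko, and 12.5, 12.9 and 17.9 TPM in HIF1α/2α-ko. Its log2 fold change was 0.65 ± 0.18 (SE, adjusted p = 0.0195) in HIF1α-ko, 0.68 ± 0.18 (SE, adjusted p = 0.0308) in HIF2α-ko and 1.12 ± 0.18 (SE, adjusted p = 0.000302) in HIF1α/2α-ko, of which only the last held under every alternative.

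ALDOC (ENSG00000109107, chr17:28573115-28577264, minus strand), the brain aldolase, stood at 747, 864 and 642 TPM in vector, 324, 211 and 196 TPM in HIF1α-ko, 1428, 1017 and 999.5 TPM in HIF2α-ko, and 665, 414 and 432 TPM in HIF1α/2α-ko. It was lowest in HIF1α-ko without overlap, whereas HIF1α/2α-ko overlapped with vector. ALDOC had a log2 fold change of -1.65 ± 0.23 (SE, adjusted p = 0.000681) in HIF1α-ko, 0.60 ± 0.23 (SE, adjusted p = 0.114) in HIF2α-ko and -0.60 ± 0.23 (SE, adjusted p = 0.0479) in HIF1α/2α-ko, and the last call was lost under 10 alternatives, among them quantile normalization. ALDOA, the main aldolase, was not called, with means of 5981 ± 1369.7 TPM in vector, 6126 ± 167 TPM in HIF1α-ko, 6055 ± 452 TPM in HIF2α-ko and 6085 ± 189 TPM in HIF1α/2α-ko (SD, n = 3) and log2 fold changes of 0.06, 0.04 and 0.05. Vector replicate 1 had 4414 TPM of ALDOA, the lowest of all libraries, and without it the log2 fold changes turned to -0.14, -0.16 and -0.15, none of them called. Median ratio scaling also turned the sign in HIF1α-ko and HIF1α/2α-ko (-0.14 and -0.18). PKM, the pyruvate kinase that closes the pathway, was lower in HIF1α-ko (-0.92 ± 0.17 (SE, adjusted p = 0.00309)) and in HIF1α/2α-ko (-0.72 ± 0.17 (SE, adjusted p = 0.00463)), from 7476 ± 142 TPM in vector to 4020.3 ± 898 and 4610.5 ± 931.

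**Figure D2:**
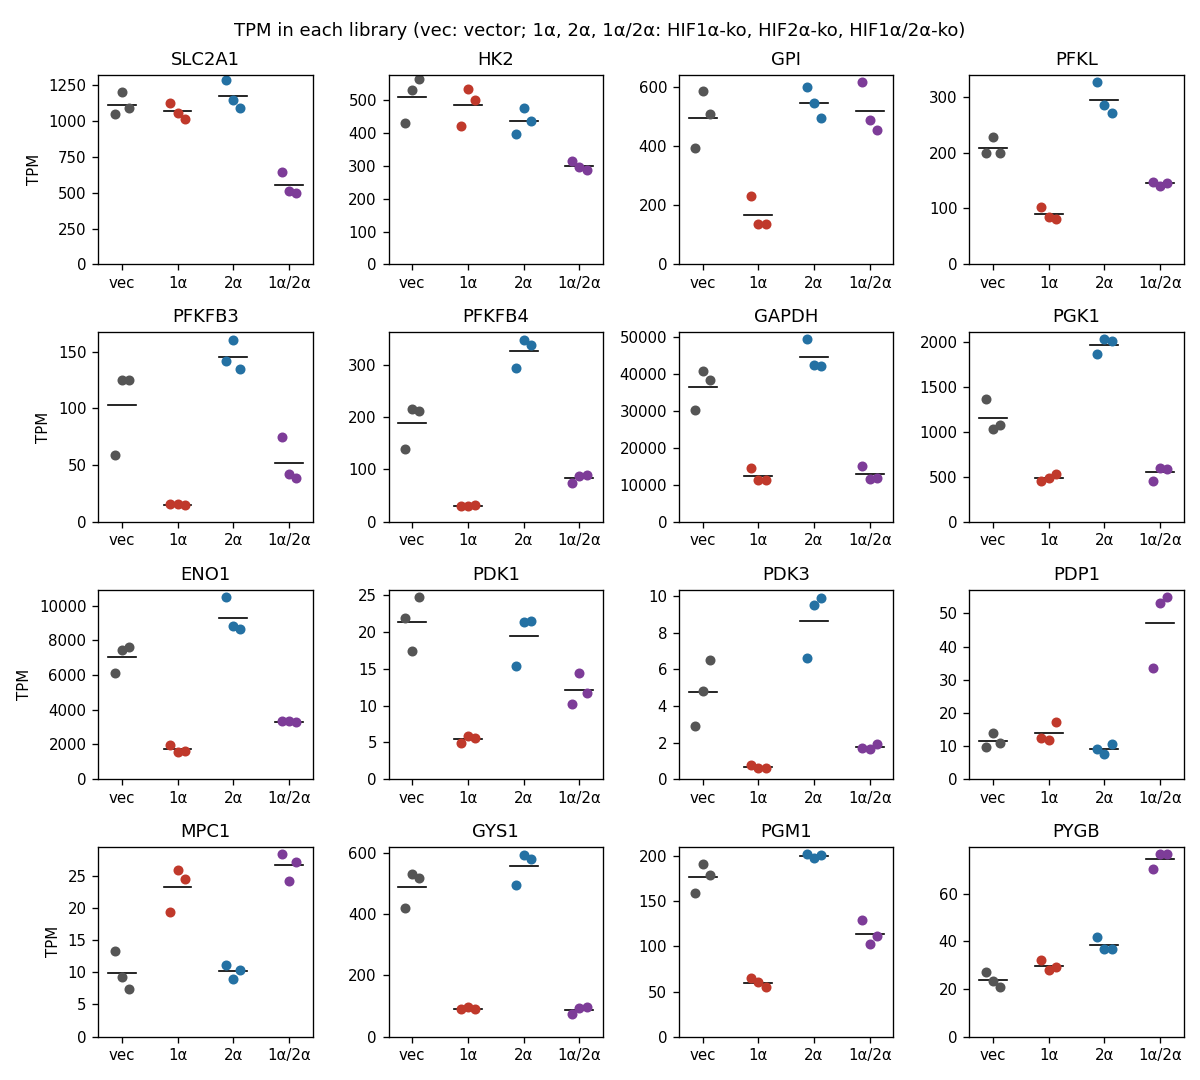
TPM of 16 genes in each library, with 1 point per library, a line at the group mean and a linear axis from 0 in each panel. For GYS1 and GAPDH both HIF1α-knockout groups sit low, for GPI only HIF1α-ko does, for SLC2A1 and HK2 only HIF1α/2α-ko does, and PDP1 stands out in HIF1α/2α-ko at 33.6 to 54.8 TPM against at most 17.4 elsewhere.

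Lactate dehydrogenase reduces pyruvate to lactate and so restores the NAD that GAPDH needs. LDHA (ENSG00000134333, chr11:18394388-18408425, plus strand), the subunit that favours lactate formation, stood at 872, 710.2 and 1489 TPM in vector, 446, 509 and 382 TPM in HIF1α-ko, 1061, 689 and 695 TPM in HIF2α-ko, and 671, 944 and 500.0 TPM in HIF1α/2α-ko. Vector replicate 3 was far above its group, yet all HIF1α-ko libraries lay below all vector libraries. LDHA had a log2 fold change of -1.13 ± 0.28 (SE, adjusted p = 0.0128) in HIF1α-ko, -0.29 ± 0.28 (SE, adjusted p = 0.564) in HIF2α-ko and -0.51 ± 0.28 (SE, adjusted p = 0.156) in HIF1α/2α-ko, and leaving out replicate 3 of vector or of HIF1α-ko ended the call in HIF1α-ko. LDHB, the subunit that favours the return to pyruvate, was higher in HIF1α/2α-ko, at 508 ± 92.1 TPM against 291 ± 30.6 in vector (0.79 ± 0.14 (SE, adjusted p = 0.000753)), and was not called in HIF1α-ko (0.16 ± 0.14 (SE, adjusted p = 0.425)) or HIF2α-ko (-0.12 ± 0.14 (SE, adjusted p = 0.659)).

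Pyruvate dehydrogenase stands between glycolysis and the citric acid cycle, and its 6 tested genes were called in both directions in HIF1α/2α-ko. PDK1, PDK2 and PDK3 were lower (14.8% of all tested genes), and PDHA1, PDHB and PDP1 were higher (31.8%). The median log2 fold change of the 6 was 0.08, beside 0.21 for all tested genes. PDK1 (ENSG00000152256, chr2:172555373-172608669, plus strand), the kinase best known from hypoxia, stood at 22.0, 17.4 and 24.8 TPM in vector, 4.93, 5.81 and 5.63 TPM in HIF1α-ko, 15.4, 21.4 and 21.5 TPM in HIF2α-ko, and 10.2, 14.4 and 11.8 TPM in HIF1α/2α-ko. The HIF1α-ko libraries were lowest, those of HIF1α/2α-ko lay between them and vector without overlap, and HIF2α-ko overlapped with vector. PDK1 had a log2 fold change of -1.78 ± 0.19 (SE, adjusted p = 0.000156) in HIF1α-ko, -0.13 ± 0.19 (SE, adjusted p = 0.704) in HIF2α-ko and -0.77 ± 0.19 (SE, adjusted p = 0.00492) in HIF1α/2α-ko. PDK3 (ENSG00000067992, chrX:24465221-24541862, plus strand), a kinase of low level here, stood at 2.89, 4.81 and 6.51 TPM in vector, 0.752, 0.617 and 0.620 TPM in HIF1α-ko, 6.60, 9.50 and 9.89 TPM in HIF2α-ko, and 1.67, 1.67 and 1.94 TPM in HIF1α/2α-ko. The 3 knockout groups were separate from vector, below it in both HIF1α-knockout groups and above it in HIF2α-ko, and 14.0% of the vector mean was left in HIF1α-ko. The log2 fold changes of PDK3 were -1.74 ± 0.22 (SE, adjusted p = 0.000466), 0.79 ± 0.22 (SE, adjusted p = 0.0428) and -1.005 ± 0.22 (SE, adjusted p = 0.00299) in HIF1α-ko, in HIF2α-ko and the dual knockout, and the call in HIF2α-ko was lost under 13 alternatives. PDK2 had means of 20.8 ± 1.12 TPM in vector, 15.7 ± 2.58 TPM in HIF1α-ko, 12.2 ± 1.88 TPM in HIF2α-ko and 11.5 ± 3.41 TPM in HIF1α/2α-ko. It was lower in HIF2α-ko (-0.73 ± 0.20 (SE, adjusted p = 0.0339)) and in HIF1α/2α-ko (-0.83 ± 0.20 (SE, adjusted p = 0.0042)), and not called in HIF1α-ko (-0.39 ± 0.20 (SE, adjusted p = 0.156)). The call of PDK2 in HIF2α-ko was lost under 7 alternatives, among them median ratio and quantile scaling.

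PDHA1 (ENSG00000131828, chrX:19343893-19361705, plus strand), the catalytic subunit that PDK kinases phosphorylate, stood at 26.5, 19.996 and 22.3 TPM in vector, 24.3, 28.9 and 30.7 TPM in HIF1α-ko, 20.2, 22.7 and 21.4 TPM in HIF2α-ko, and 42.4, 53.9 and 54.5 TPM in HIF1α/2α-ko. The HIF1α/2α-ko libraries lay above all others, with a log2 fold change of 1.10 ± 0.15 (SE, adjusted p = 0.000125), beside 0.28 ± 0.15 (SE, adjusted p = 0.195) in HIF1α-ko and -0.09 ± 0.15 (SE, adjusted p = 0.766) in HIF2α-ko. PDP1 (ENSG00000164951, chromosome 8), the phosphatase that reactivates the complex, stood at 9.76, 13.9 and 10.9 TPM in vector, 12.3, 11.7 and 17.4 TPM in HIF1α-ko, 8.96, 7.64 and 10.7 TPM in HIF2α-ko, and 33.6, 53.1 and 54.8 TPM in HIF1α/2α-ko. It rose 3.80-fold on the TPM + 1 scale in HIF1α/2α-ko, by 1.93 ± 0.22 (SE, adjusted p = 3.4e-05), and was not called in HIF1α-ko (0.24 ± 0.22 (SE, adjusted p = 0.445)) or HIF2α-ko (-0.31 ± 0.22 (SE, adjusted p = 0.413)). PDHB, the partner subunit of PDHA1, was higher in HIF1α-ko (0.93 ± 0.20 (SE, adjusted p = 0.00611)) and HIF1α/2α-ko (0.93 ± 0.20 (SE, adjusted p = 0.00234)), at 45.8 ± 4.09 and 45.8 ± 5.46 TPM against 24.2 ± 8.38 in vector, where replicate 1 was highest. Its log2 fold change in HIF2α-ko was 0.57 (adjusted p = 0.0885), and without vector replicate 1 it was 0.83 (adjusted p = 0.00265).

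The mitochondrial pyruvate carrier is a heteromer of MPC1 and MPC2, and in HIF1α/2α-ko its subunits were called in opposite directions. MPC1 (ENSG00000060762, chr6:166364919-166383013, minus strand) stood at 13.2, 9.24 and 7.34 TPM in vector, 19.3, 25.8 and 24.5 TPM in HIF1α-ko, 11.1, 8.97 and 10.4 TPM in HIF2α-ko, and 28.4, 24.2 and 27.1 TPM in HIF1α/2α-ko. Both HIF1α-knockout groups lay above all vector libraries, and HIF2α-ko overlapped with vector. The log2 fold change of MPC1 was 1.17 ± 0.19 (SE, adjusted p = 0.00173) in HIF1α-ko, 0.06 ± 0.19 (SE, adjusted p = 0.889) in HIF2α-ko and 1.37 ± 0.19 (SE, adjusted p = 0.00014) in HIF1α/2α-ko. MPC2 had means of 64.9 ± 7.16 TPM in vector, 75.9 ± 11.99 TPM in HIF1α-ko, 60.6 ± 8.80 TPM in HIF2α-ko and 48.3 ± 3.31 TPM in HIF1α/2α-ko. It was called lower in HIF1α/2α-ko (-0.41 ± 0.15 (SE, adjusted p = 0.0434)), a call lost under 9 alternatives, and its log2 fold changes in HIF1α-ko and HIF2α-ko were 0.22 (adjusted p = 0.315) and -0.10 (adjusted p = 0.734).

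Among the 7 glycogen genes, the synthase GYS1 was lower in both HIF1α-knockout groups, and in HIF1α/2α-ko the phosphorylase PYGL was lower and PYGB higher. GYS1 (ENSG00000104812, chr19:48968125-48993310, minus strand), the muscle-type glycogen synthase that extends the chains, stood at 419, 530.4 and 520.1 TPM in vector, 88.5, 96.9 and 89.1 TPM in HIF1α-ko, 497, 594 and 579 TPM in HIF2α-ko, and 72.4, 91.9 and 95.4 TPM in HIF1α/2α-ko. The HIF1α-knockout libraries reached at most 96.9 TPM, against at least 419 in the others, and HIF2α-ko overlapped with vector. The log2 fold change of GYS1 was -2.40 ± 0.14 (SE, adjusted p = 1.97e-06) in HIF1α-ko, 0.19 ± 0.14 (SE, adjusted p = 0.417) in HIF2α-ko and -2.49 ± 0.14 (SE, adjusted p = 4.58e-07) in HIF1α/2α-ko, the strongest evidence by adjusted p of all 38 genes in both HIF1α-knockout groups. PGM1 (ENSG00000079739, chr1:63593276-63660245, plus strand), which makes glucose 1-phosphate for glycogen, stood at 159.7, 192 and 179.7 TPM in vector, 65.0, 60.2 and 54.6 TPM in HIF1α-ko, 203, 198 and 201 TPM in HIF2α-ko, and 129, 103 and 111 TPM in HIF1α/2α-ko. It was lowest in HIF1α-ko and intermediate in HIF1α/2α-ko without overlap, at -1.55 ± 0.12 (SE, adjusted p = 1.93e-05) and -0.63 ± 0.12 (SE, adjusted p = 0.00119), beside 0.18 ± 0.12 (SE, adjusted p = 0.361) in HIF2α-ko. PYGB (ENSG00000100994, chr20:25248069-25298014, plus strand), the brain glycogen phosphorylase, stood at 27.2, 23.5 and 21.0 TPM in vector, 32.3, 28.1 and 29.1 TPM in HIF1α-ko, 41.7, 36.6 and 36.7 TPM in HIF2α-ko, and 70.4, 76.5 and 76.8 TPM in HIF1α/2α-ko. All knockout libraries lay above vector, and its log2 fold change was 0.31 ± 0.13 (SE, adjusted p = 0.0917) in HIF1α-ko, 0.67 ± 0.13 (SE, adjusted p = 0.00835) in HIF2α-ko and 1.61 ± 0.13 (SE, adjusted p = 3.58e-06) in HIF1α/2α-ko.

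PYGL, the liver phosphorylase that breaks glycogen down, was lower in HIF1α/2α-ko, at 27.4 ± 1.68 TPM against 43.7 ± 3.55 in vector (-0.66 ± 0.13 (SE, adjusted p = 0.00157)). Its lower level in HIF1α-ko (-0.39 ± 0.13 (SE, adjusted p = 0.0466)) passed narrowly and was lost under 11 alternatives. PGM2, a minor mutase at 2.00 to 4.997 TPM, was higher in HIF1α/2α-ko (0.53 ± 0.16 (SE, adjusted p = 0.0173)), with 0.18 (adjusted p = 0.415) and -0.11 (adjusted p = 0.721) in HIF1α-ko and HIF2α-ko. Its call in HIF1α/2α-ko was lost under 7 alternatives, among them median ratio and quantile scaling. GBE1, the branching enzyme, had means of 302, 213, 317 and 219.8 TPM in vector, the HIF1α and HIF2α single knockouts and HIF1α/2α-ko and was not called (-0.51 (adjusted p = 0.178), 0.06 (adjusted p = 0.915) and -0.44 (adjusted p = 0.203)). With median ratio scaling GBE1 was called in HIF1α-ko and HIF1α/2α-ko. UGP2, which makes the UDP-glucose that GYS1 uses, stayed between 15.6 and 28.0 TPM and was not called (0.13, 0.05 and 0.13).

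Whether the dual knockout differed from the knockout of HIF1α alone was tested directly. Of the 38 genes, 16 were higher in the dual knockout than in HIF1α-ko, beside 17.7% of all tested genes, and 3 were lower, beside 10.6%. At a log2 difference of 1 or more in size 8 were higher (5.40% of all tested genes) and 0 lower (3.12%). Of the 20 genes lower in HIF1α-ko than in vector, 12 were higher in the dual knockout than in HIF1α-ko and 8 were not called between these groups. Both comparisons use the same HIF1α-ko libraries, so genes chosen for low values there tend to be higher in the second by the choice itself. Of all 1029 tested genes lower in HIF1α-ko, 25.5% were higher and 7.77% lower in the second comparison. The 12 were HK1, GPI, PFKL, PFKFB3, PFKFB4, ALDOC, PGAM1, ENO1, ENO2, PDK1, PDK3 and PGM1, and the calls of ENO2 (adjusted p = 0.0471) and PDK3 (adjusted p = 0.028) were lost under 11 and 6 alternatives. GPI had 33.8% of its vector mean in HIF1α-ko and 105% in the dual knockout (log2 difference 1.66 ± 0.21 (SE, adjusted p = 0.000185)). PFKFB3 had 14.6% and 50.5% (1.66 ± 0.28 (SE, adjusted p = 0.00124)), PFKFB4 had 16.2% and 44.1% (1.42 ± 0.16 (SE, adjusted p = 0.000109)), and ENO1 had 24.5% and 47.1% (0.95 ± 0.12 (SE, adjusted p = 0.000222)). For GYS1, GAPDH, TPI1 and PGK1 the corresponding values were 18.7% and 17.7%, 34.1% and 35.2%, 47.1% and 48.1%, and 42.3% and 47.4%, with log2 differences of -0.09 ± 0.14 (SE, adjusted p = 0.678), 0.05 ± 0.15 (SE, adjusted p = 0.845), 0.03 ± 0.13 (SE, adjusted p = 0.885) and 0.15 ± 0.14 (SE, adjusted p = 0.436). A call that fails does not show that the groups were alike, but for these genes the SE was at most 0.15.

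Genes higher in the dual knockout than in HIF1α-ko that had not been low in HIF1α-ko were LDHB (0.63 (adjusted p = 0.00639)), PDHA1 (0.82 (adjusted p = 0.00206)), PDP1 (1.69 (adjusted p = 0.000222)) and PYGB (1.30 (adjusted p = 5.58e-05)). Lower were SLC2A1 (-0.96 (adjusted p = 0.00017)), HK2 (-0.69 (adjusted p = 0.0022)) and MPC2 (-0.63 (adjusted p = 0.00975)). Libraries of the same number deviated together among the knockout groups, those of replicate 1 most of all. The comparison was therefore repeated with replicate number as a block on the 9 knockout libraries. It then had 5 lower genes, PFKM (adjusted p = 0.0101) and PDK2 (0.0159) being added. In the same blocked fit PFKFB2, ENO3, PKM and LDHA were called higher (adjusted p = 0.00158, 0.0385, 0.0185 and 0.0293). Pairing beyond replicate 1 is not shown, and these added calls rest on it. HIF1A itself differed between these groups, at 48.5 TPM in HIF1α-ko and 75.5 TPM in HIF1α/2α-ko (0.64 (adjusted p = 0.0287)), and its part in these differences was not tested.

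The knockout of HIF2α alone moved fewer of the genes than either group with a HIF1α knockout did, and mostly upward. Of the 38 genes, 7 were higher (5.07% of all tested genes) and 1 was lower (5.89%). The 7 higher genes were PFKL, PFKFB4, PGK1, PGAM1, ENO3, PDK3 and PYGB, and of these PFKL, PFKFB4, PGK1, PGAM1 and PDK3 were lower in HIF1α-ko. Mean levels in HIF2α-ko were 183% of vector for PDK3, 173% for PFKFB4, 170.0% for PGK1, 143% for PGAM1 and 141% for PFKL. Libraries did not overlap with vector for 14 genes that were higher (12.6% of all tested genes did so) and 1 that was lower (18.0%). PFKFB4 and PYGB lost their calls under 1 alternative each. Leaving out HIF2α-ko replicate 2 left 3 higher genes, 4 were left without replicate 2 or 3 of vector, or replicate 1 or 3 of HIF2α-ko, and the lower call of PDK2 was lost when replicate 2 or 3 was left out, whether of vector or of HIF2α-ko. A fit on the vector and HIF2α-ko libraries alone called 2 higher and 0 lower.

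Set directly against HIF2α-ko, 21 of the 38 genes were lower in HIF1α-ko, beside 7.37%, and 1, MPC1, was higher, beside 17.8%. PFKFB4 differed most, 10.4-fold on the TPM + 1 scale (-3.37 ± 0.16 (SE, adjusted p = 3.21e-07)), and was followed by PFKFB3 (-3.19 ± 0.28 (SE, adjusted p = 1.54e-05)), GYS1 (-2.59 ± 0.14 (SE, adjusted p = 3.33e-07)) and PDK3 (-2.52 ± 0.22 (SE, adjusted p = 1.54e-05)). With the replicate block on the 9 knockout libraries, 8 genes were higher, PFKM, LDHB, PDK2, PDHA1, PDHB, PDP1 and MPC2 being added at adjusted p-values of 0.0135, 0.0273, 0.043, 0.0105, 0.0413, 0.0239 and 0.017, and GBE1 and PYGB were added to the lower genes (0.00107 and 0.0148). In HIF1α/2α-ko against HIF2α-ko, 20 genes were lower, beside 12.9%, and 6 were higher, beside 33.5%, of which 12 and 3 differed by 1 or more on the log2 scale (4.06% and 14.4%). GYS1 (-2.68 ± 0.14 (SE, adjusted p = 4.46e-07)) was lowest and PDP1 (2.23 ± 0.22 (SE, adjusted p = 1.25e-05)) highest. The block added PFKFB2, ENO3 and PDHB to the higher genes and MPC2 and GBE1 to the lower ones here (adjusted p = 0.00192, 0.0368, 0.035, 0.0131 and 0.000892). All calls added by the block rest on a pairing that is not shown beyond replicate 1.

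The interaction contrast asks whether the dual knockout differs from the sum of the single knockouts on the log2 scale. It was called for 12 of the 38 genes (20.6% of all tested genes), 10 above the sum (13.2% of all tested genes) and 2 below it (7.35%). PDP1 (1.99 ± 0.31 (SE, adjusted p = 0.00193)), GPI (1.51 ± 0.30 (SE, adjusted p = 0.00538)), PDK1 (1.15 ± 0.26 (SE, adjusted p = 0.0107)) and PDHA1 (0.91 ± 0.22 (SE, adjusted p = 0.0128)) were above the sum and SLC2A1 (-1.03 ± 0.17 (SE, adjusted p = 0.00236)) below it under every alternative tried that set no threshold of size. At 1 or more in size 3 were above (7.68%) and 1 below (4.05%). The count itself changed with the libraries used, from 6 without HIF1α/2α-ko replicate 3 to 16 without vector replicate 1, and 7 without vector replicate 3 or without HIF1α-ko replicate 3.

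Within a library, the share of each isoenzyme in its family does not depend on how libraries are scaled, and several families differed in make-up between the groups. Hexokinase was 54.1% ± 1.55 (SD, n = 3) HK1 in vector, with HIF1α-ko at 46.8% ± 2.27, HIF2α-ko at 57.4% ± 0.891 and HIF1α/2α-ko at 68.0% ± 0.930, so HK1 held most of the sum except in HIF1α-ko. PYGB held 35.4% ± 4.85 of the phosphorylase mRNA in vector, with HIF1α-ko at 47.4% ± 3.16, HIF2α-ko at 44.5% ± 4.94 and HIF1α/2α-ko at 73.2% ± 0.767, where it exceeded PYGL in all 3 libraries. LDHB held 23.2% ± 5.56 of lactate dehydrogenase in vector, with HIF1α-ko at 42.3% ± 3.41, HIF2α-ko at 25.5% ± 6.11 and HIF1α/2α-ko at 42.5% ± 8.21. In the same groups the family summed to 769.9 TPM in HIF1α-ko and 1213 TPM in HIF1α/2α-ko, against 1315 TPM in vector and 1083 in HIF2α-ko. Among the PDK kinases PDK2 held 44.5% ± 4.19 in vector and 71.7% ± 4.31 in HIF1α-ko, while PDK3 held 9.96% ± 3.05 in vector, with HIF1α-ko at 3.04% ± 0.150, HIF2α-ko at 21.3% ± 2.68 and HIF1α/2α-ko at 6.99% ± 1.19.

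In phosphofructokinase, PFKM held 5.03% ± 1.14 of the sum in vector, 11.9% ± 1.29 in HIF1α-ko and 9.43% ± 0.809 in the dual knockout, with PFKP the main form throughout (79.6% ± 4.30, 76.5% ± 0.454, 72.8% ± 2.35 and 71.9% ± 1.12). ENO2 held 14.2% ± 2.82 of enolase in vector and 24.5% ± 4.96 in HIF1α-ko, and ALDOC held 11.5% ± 2.82 and 3.84% ± 1.15 of aldolase. The PFKFB family summed to 297 TPM in vector and 49.6 in HIF1α-ko, with similar shares of PFKFB3 (33.9% ± 3.99 and 30.3% ± 1.53) and PFKFB4 (64.3% ± 4.33 and 61.6% ± 1.55). These shares are descriptions and were not tested.

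**Figure D3:**
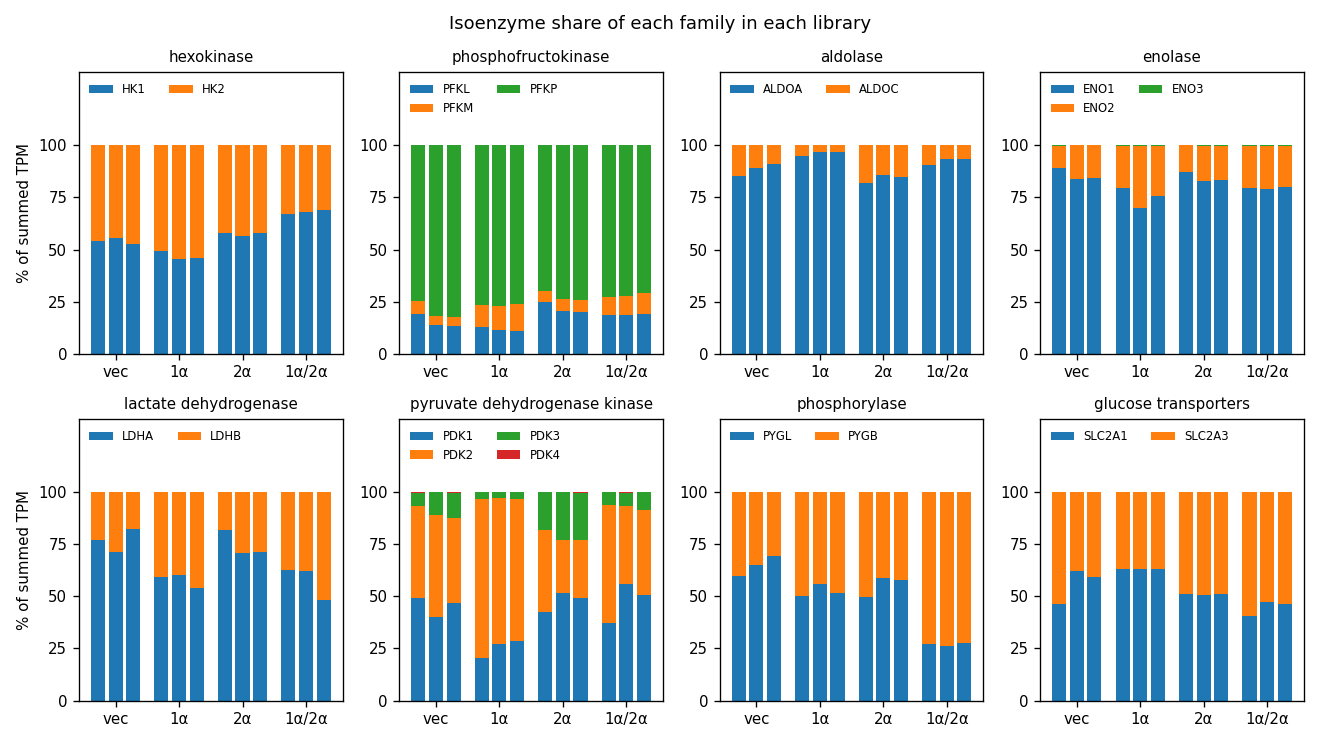
Percent of the summed TPM of each enzyme family held by each isoenzyme, with 1 stacked bar per library and the libraries of a group side by side (vec: vector, 1α: HIF1α-ko, 2α: HIF2α-ko, 1α/2α: HIF1α/2α-ko). PYGB takes 73.2% of phosphorylase in HIF1α/2α-ko against 35.4% in vector, and LDHB takes 42.3% and 42.5% of lactate dehydrogenase in the HIF1α-knockout groups against 23.2%.

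Neighbouring genes of the same pathways were counted from lists chosen by function. Of 14 other glycogen genes tested, HIF1α-ko had 5 lower and 1 higher (8.77% and 17.3% of all tested genes). The dual knockout had 4 lower and 2 higher (14.8% and 31.8%), and HIF2α-ko had 2 lower (5.89%). Among them PPP1R3C and PPP1R3B, which target protein phosphatase to glycogen and so favour synthesis, were lower in HIF1α-ko (-1.23 and -0.77) and HIF1α/2α-ko (-1.64 and -1.69), and the glycogen primer gene GYG1 was higher (0.88 and 1.65). PPP1R3B was also lower in HIF2α-ko, at 62.0 to 65.0 TPM against 82.7 to 99.8 in vector (-0.47 (adjusted p = 0.042)), where GYS1 was not called. The other gene lower in HIF2α-ko was GSK3A, with the larger fall of the 2 (-1.08), at 32.4 to 42.6 TPM against 71.3 to 88.0 in vector. STBD1, which tethers glycogen to membranes, was lower in HIF1α-ko (-1.68 (adjusted p = 0.00906)). In the pentose phosphate pathway, the side branch that leaves glycolysis at glucose 6-phosphate, 7 of 9 tested genes were higher in HIF1α/2α-ko, led by PGD (1.51 (adjusted p = 1.08e-05)), RPE (1.35 (adjusted p = 0.0254)) and TALDO1 (1.34 (adjusted p = 8.78e-05)), against 2 higher and 1 lower in HIF1α-ko. The background for a higher call in HIF1α/2α-ko, 31.8%, is itself high.

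Of 12 citric acid cycle genes tested, 6 were higher in HIF1α/2α-ko (31.8% of all tested genes), among them IDH3A (1.72 (adjusted p = 9.91e-05)) and FH (1.69 (adjusted p = 4.43e-05)). In HIF1α-ko 1 was higher and 1 lower (17.3% and 8.77%), and in HIF2α-ko 1 was lower (5.89%). Of 5 other pyruvate dehydrogenase genes, DLD alone was called, higher in HIF1α/2α-ko (0.77 (adjusted p = 0.0255)), beside 31.8% of all tested genes. Of 6 other glycolytic genes tested, HKDC1, a hexokinase relative, stood at 23.4 to 29.996 TPM in vector and 52.1 to 137 in HIF1α/2α-ko, where it was higher (1.82 (adjusted p = 0.000275)). TIGAR, which lowers fructose 2,6-bisphosphate, stood at 0.1001 to 0.204 TPM in vector and 3.01 to 7.34 in HIF1α/2α-ko, and since it entered the test only through that group, no test is given. BPGM was higher in HIF1α/2α-ko (0.87 (adjusted p = 0.00704)). LDHD, a lactate dehydrogenase of the D form, was lower there (-0.85 (adjusted p = 0.00044)) and higher in HIF2α-ko (1.10 (adjusted p = 0.00174)), at 82.4 to 116 TPM in vector, 51.5 to 55.7 in HIF1α/2α-ko and 203 to 222 in HIF2α-ko. In all, 2 genes of the list, LDHD and PGAM4, were higher in HIF2α-ko (5.07% of all tested genes). In this list 1 gene was lower in HIF1α-ko (8.77% of all tested genes). It was PGAM4 (-1.20 (adjusted p = 0.000201)), which lies within the PGK1 gene on the other strand and resembles PGAM1. Of 5 other glucose transporters, 1 was lower and 2 higher in HIF1α-ko (8.77% and 17.3% of all tested genes). In HIF2α-ko 1 was higher (5.07%), and in HIF1α/2α-ko 2 were lower and 2 higher (14.8% and 31.8%). PCK2, the mitochondrial enzyme that turns oxaloacetate into phosphoenolpyruvate, led the 4 gluconeogenic genes tested and was higher in HIF1α-ko (1.54 (adjusted p = 0.000572)) and HIF1α/2α-ko (1.91 (adjusted p = 2.27e-05)).

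Some of these levels may hold reads of other genes, since the sources used here do not give the counting program, its treatment of reads that match several places, or its use of strand. Named pseudogenes are annotated for 12 of the 39 genes, with 62 for GAPDH, 13 for PGAM1, 6 for LDHA and 5 for PKM. A coding gene overlaps on the same strand in 7 (GPI, PFKFB4, ALDOA, ALDOC, PGK1, ENO2 and LDHB), and a coding gene on the other strand in 11, so values of these genes are uncertain to that extent.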

How the data were processed

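The deposited table held TPM of 20263 genes in 12 libraries of U-87 MG cells, which the authors had scaled by gene length and library total (column sums 999955 to 999982). The submitters' processing notes name FastQC 0.11.2, Trimmomatic 0.36, HISAT2 2.0, bedtools 2.26.0 and GRCh38, and the counter and its annotation are not given in the sources used here. Libraries were grouped by GEO's labels. Knockout columns were matched to samples by their titles, and vector columns by group only, so vector replicate numbers are those of the columns. Symbols and positions came from GENCODE 29 (GRCh38).

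TPM were tested with limma 3.58.1 (R 4.3.3) on log2(TPM + 1), with a mean-variance trend, over the 11731 genes that reached 1 TPM in 3 or more libraries. The 4 groups shared 1 model, and Benjamini-Hochberg adjustment ran over all tested genes. The test was checked on simulated data. Shares are sums of TPM. Values of every library are given for members with an adjusted p under 0.05 and a log2 fold change against vector of 1 or more in size, and at most 3 rises and 3 falls are named for each list of other genes. Alternatives changed the pseudocount (0.1), the filter, the scaling, the samples fitted, the trend, the replicate block and the libraries left out.

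Deviations of same-numbered libraries correlated at 0.196 to 0.508 among knockout groups, with 0.463 to 0.508 for replicate 1 and 0.196 to 0.250 for replicates 2 and 3. Deviations were taken from the mean of 3 libraries, so an offset shared by replicate 1 alone would also give positive values for the others. Pairing of replicates 2 and 3 is therefore not shown, and calls with the block rest on it. Between vector and the knockouts the values were -0.0265 to 0.163, and these were not paired. The members, the lists of other genes and the tests were chosen with earlier results of these data known.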

Additional observations from a re-analysis of the deposited data

Results flagged for a closer look

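In 12 genes (20.6% of all tested genes) the change that came with the HIF1α knockout differed according to whether HIF2α was also knocked out, by the interaction term of the limma model. The median interaction of the 38 genes was 0.17, beside 0.12 for all tested genes. PDP1 had an interaction of 1.99 (adjusted p = 0.00193) on the log2 scale. Its log2 difference with the HIF1α knockout was 0.24 where HIF2α was intact and 2.23 where it was not. GPI had an interaction of 1.51 (adjusted p = 0.00538), with differences of -1.59 and -0.08. PDK1 had 1.15 (adjusted p = 0.0107), with -1.78 and -0.63. PDHA1 had 0.91 (adjusted p = 0.0128), with 0.28 and 1.19. SLC2A1 had -1.03 (adjusted p = 0.00236) in the opposite direction, with -0.06 and -1.10. These 5 interactions were called under every alternative other than a threshold of 1 on the size of the log2 value, which PDHA1 did not reach.

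PGM1 had an interaction of 0.73 (adjusted p = 0.0116), LDHB of 0.75 (adjusted p = 0.0228), PYGB of 0.63 (adjusted p = 0.0307) and HK1 of 0.59 (adjusted p = 0.0223). PGAM1 (0.53 (adjusted p = 0.0475)), ENO1 (0.55 (adjusted p = 0.0451)) and PGK1 (-0.62 (adjusted p = 0.0415)) passed narrowly. Each of these 7 was lost under at least 1 alternative, and among them PGM1, PYGB, HK1, PGAM1 and ENO1 were lost under median ratio scaling. Groups of 3 libraries are too small for a test of outlying libraries. The causes of these differences were not tested.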

How the results depend on the processing

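The set of 39 genes gave 5648 values of single genes under other settings, of which 5304 stayed on the same side of the threshold, 198 lost a call and 144 gained one. The sign changed in 135 values, all of genes not called with all libraries, and 133 of these were not called under the alternative either. The other 2 were ALDOA in HIF2α-ko against vector (-0.22) and ALDOA in HIF1α/2α-ko against vector (-0.17) when replicate 1 of every group was left out, a setting chosen after seeing the data. Of the genes lower in HIF1α-ko, 16 of 20 kept their call in every alternative without a threshold of size, of those lower in HIF1α/2α-ko 16 of 20, and of those higher in HIF2α-ko 1 of 7.

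Counting only log2 fold changes of at least 1 in size, higher genes in HIF1α-ko numbered 1, in HIF2α-ko 0 were lower and 0 higher, and in HIF1α/2α-ko 8 were lower and 5 higher. Against HIF1α-ko, HIF1α/2α-ko then had 0 lower and 8 higher, against HIF2α-ko 12 lower and 3 higher, and 4 interactions passed. With replicate 1 of every group left out, HIF1α-ko had 7 higher genes and HIF2α-ko had 5 lower and 11 higher, 5 were lower in the dual knockout than in HIF1α-ko, 6 were higher in HIF1α-ko than in HIF2α-ko, and 24 had an interaction. Median ratio scaling, quantile normalization and a fit on the compared groups alone each left 0 lower genes in HIF2α-ko, and the last left 2 higher. Median ratio scaling left 7 interactions. Each share divided by the median ratio factor of its library had a mean of 9.85 in HIF2α-ko, which is no longer a percent of the library total. The share itself does not depend on such scaling. Quantile normalization gave 5 genes lower in the dual knockout than in HIF1α-ko. Without a filter, 2 genes were higher in HIF1α-ko than in HIF2α-ko. The replicate block gave 4 such genes on all 12 libraries and 8 on the 9 knockout libraries, where 5 were lower in the dual knockout than in HIF1α-ko. In the block on all 12, vector libraries are matched by column number alone, without known pairing. Without the 10 most abundant genes, the share was 5.03% in vector, and HIF1α-ko had 2.71%, HIF2α-ko 5.78% and HIF1α/2α-ko 3.13%. The cause of these shifts was not tested.

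Leaving out 1 library at a time gave 18 to 21 lower and 2 to 5 higher genes in HIF1α-ko (2 without vector replicate 3 or HIF1α-ko replicate 2), 0 to 2 and 3 to 8 in HIF2α-ko, and 17 to 20 and 7 to 8 in HIF1α/2α-ko. HIF1α/2α-ko had 3 to 4 lower and 14 to 18 higher than HIF1α-ko, and 18 to 20 lower and 6 to 9 higher than HIF2α-ko. HIF1α-ko had 17 to 22 lower and 1 to 3 higher than HIF2α-ko (3 without vector replicate 1, 2 without HIF1α/2α-ko replicate 1). Interactions numbered 6 to 16. Shares ranged from 7.25% to 8.15%, 3.25% to 3.53%, 8.52% to 9.18% and 3.64% to 3.96%. TPM keep no read depth, so the counting error of genes at a few TPM, such as PDK3, PGM2 and PFKFB2, cannot be given.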
